A study of Mus musculus with 24 samples.

Results

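The immunoglobulin genes encode the heavy and light chains of the B cell receptor and of secreted antibody. On the array used here they were read by 53 of 45101 probe sets, chosen because their gene symbol field, alone or among several symbols, held a symbol beginning with Igh, Igk or Igl, with unrelated genes of similar name (Ighmbp2 and Iglon5, 6 probe sets) left out. The rule used no measured value, but it was chosen with earlier results of these data known. Of the 53 probe sets, 23 belonged to the heavy chain locus on chromosome 12, 24 to the kappa locus on chromosome 6 and 6 to the lambda group on chromosome 16. A single symbol was listed for 40 of them and several for 13.

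Signals were measured in sorted spleen B cells of female C57BL/6 mice aged 8 to 10 weeks, with 3 arrays in each of 8 groups and 24 arrays in all. Follicular B cells (B220+ AA4.1- CD21int CD23+) and marginal zone B cells (B220+ AA4.1- CD21high CD23low) came from mice with no immunization stated, and stimulated follicular cells were the former after 6 h with an F(ab')2 antibody against mouse IgM at 10 µg/ml plus an antibody against CD40 at 2 µg/ml. The other 5 groups came from mice immunized with NP-CG in alum, NP being a hapten, and bound the related hapten NIP. After cells carrying IgM or IgD were depleted, memory cells were taken as IgG1+ CD38+ PNA- and germinal center cells as IgG1+ CD38dull PNA+, each at day 7 and at day 40. Plasma cells were taken at day 7 as IgG1low CD138+ Igλ+ cells. A difference in IgM, IgG1, kappa or lambda RNA between these gates is therefore no independent finding. Gating on NIP binding can also select among variable segments. Nothing in the labels ties samples to individual or pooled mice, and p-values measure only the spread between these samples. In sorted populations, fewer cells of a type and less RNA per cell cannot be told apart.

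A naive B cell makes IgM and IgD from one rearranged heavy chain gene, and class switching after activation replaces the mu constant region with a gamma, alpha or epsilon region farther along the locus. Each cell uses 1 of many variable segments for each chain. The signal for a variable segment can therefore vary with the share of the population's RNA that carries it. These signals were not tested as a measure of segment use, and probe sets named for 1 segment can disagree. In C57BL/6 mice the early antibody response to NP is known for lambda light chains paired with the heavy chain segment Ighv1-72, and plasma cells devote much of their RNA to antibody.

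Values are GCRMA signals on the log2 scale as deposited, from a floor of 2.15 to a highest value of 16.43. A probe set was tested where it exceeded the median of its array on at least 3 arrays, which 42 of the 53 did. A probe set was called changed at an adjusted p under 0.05 (limma) with a log2 change of at least 1. Because some of the 42 passed only through the group in which they were high, counts over them are descriptions. The 11 untested probe sets (7 heavy, 3 kappa, 1 lambda) never exceeded 3.56. Array medians lay between 2.39 and 2.86. The marker genes fixed for each gate mostly bore out the labels. The plasma cell list summed to between 96.09 and 97.57 in plasma cells against 52.83 to 70.29 on the arrays of the other groups. It includes Sdc1, whose protein CD138 was a sort marker, so the gate set part of this separation. Irf4, also on the list, did not separate plasma cells, with a mean of 14.26 there and 15.02 in stimulated cells. Pax5 was at background in plasma cells. Memory cells of day 7, replicate 1, held more germinal center marker signal than replicates 2 and 3, with Gcsam, a germinal center gene, at 9.21 against 2.26 and 2.40. Among memory cells of day 40, Gcsam read 6.33, 7.46 and 2.71, and the 6 germinal center markers summed to between 38.36 and 51.68 against 28.62 to 29.50 in follicular cells. The 4 T cell markers summed to between 8.74 and 11.57 outside plasma cells and to between 11.00 and 14.95 in them, with Cd3e and Cd3g at background there, Cd4 at 6.58, 3.24 and 5.58 and Cd8a between 3.46 and 4.07.

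The gene names need care. No probe set listed Ighg1, Ighg2b, Ighg2c, Ighd or Ighe, so the IgG1 chain used for sorting had no probe set of its own name. The 11 probe sets named Ighm alone included some of opposite pattern, and levels are therefore given by probe set. The name is the array annotation's. It was identical to the RefSeq symbol for all 53. What each probe set hybridizes to was not tested. Probe sets whose names end in _x_at or _s_at, 22 of the 53, can read several related segments.

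Across the 8 groups, 41 of the 42 tested probe sets differed by limma's F test (adjusted p under 0.05), against 84.9% of all 26078 probe sets tested. The exception was 1427799_x_at, listed for kappa variable segments, with an adjusted p of 0.634 and group means between 7.58 and 7.78.

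Counted over the 42 tested probe sets, marginal zone cells differed least from follicular cells. There 2 probe sets rose (both Ighg3) and 2 fell (both kappa), against 5.38% and 3.28% (8.66% together) of all probe sets tested. After stimulation none rose and 21 fell, against 16.8% and 20.3% (37.2% together) of all probe sets. At an unadjusted p under 0.05 still none was higher, and 28 were lower. Here and below, the share of all probe sets was not computed for unadjusted p-values or without the minimum change. The falls comprised 5 of 16 heavy, 13 of 21 kappa and 3 of 5 lambda probe sets, with a median change of -1.14 over the 42 against 0.00 over all probe sets (-0.0033). B cell markers were also lower in stimulated cells: 4 of them summed to 42.72 to 44.39 there and to 51.30 to 51.63 in follicular cells, and the part of this shift in the immunoglobulin falls was not tested.

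In memory cells of day 7, 13 probe sets rose and 11 fell against follicular cells, where 8.94% and 9.67% (18.6% together) of all probe sets did. Without replicate 1, the array with most germinal center marker signal, the counts were 13 and 10. The 6 markers summed to at least 31.03 on every memory array of day 7, against 28.62 to 29.50 in follicular cells. Leaving out 1 array therefore does not remove this signal. The rises were 11 of 16 heavy, 1 of 21 kappa and 1 of 5 lambda probe sets, and 7 of the falls were kappa. At day 40, 11 rose and 13 fell (7.03% and 7.05% of all, 14.1% together), with 10 heavy rises and 9 kappa falls. Without replicate 1 or replicate 2, the day 40 arrays with more Gcsam, the counts were 12 and 13 or 11 and 10. Each of these fits kept other arrays with germinal center marker signal. Germinal center cells held 11 rises and 15 falls at day 7 (13.5% and 16.6% of all, 30.1% together) and 12 and 16 at day 40 (15.4% and 16.9%, 32.3% together), with 11 kappa falls at each day. Kappa probe sets had 0 rises in either germinal center group, and 0 also at an unadjusted p under 0.05 by limma.

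Plasma cells had 24 rises and 2 falls (19.4% and 22.5% of all probe sets, 41.9% together), of which 13 rises were heavy, 7 kappa and 4 lambda. Their median change was 1.28 over the 42 against -0.07 over all probe sets. All 7 of these comparisons share the follicular arrays, so their counts are not independent of one another.

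Within the immunized mice, germinal center cells of day 7 had 0 rises and 7 falls against memory cells of the same day (10.1% and 11.1% of all probe sets, 21.2% together), 6 of the falls kappa. No probe set was higher at an unadjusted p under 0.05 either. Plasma cells had 22 rises and 1 fall against memory cells (16.2% and 17.7%, 33.9% together) and 28 rises and 1 fall against germinal center cells of day 7 (17.1% and 18.4%, 35.5% together), the fall being Ighv14-2 in both. Between the days, memory cells had 1 rise and 2 falls (2.29% and 1.89%, 4.17% together) and germinal center cells 2 rises and 3 falls (2.73% and 1.76%, 4.49% together). The minimum change bears on the memory count, since 9 probe sets passed the test without it, 1 higher and 8 lower at day 40. The change from day 7 to day 40 differed between memory and germinal center cells for 3 probe sets (Ighv14-2, Igkv4-72 and Igkv14-111), against 3.44% of all probe sets. With the replicate number as a block only Igkv4-72 was called, and the count was 1.

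The probe sets 1427329_a_at and 1427351_s_at, both named Ighm for the IgM heavy chain constant region, were highest in naive and plasma cells and lowest in IgG1-sorted memory and germinal center cells. On 1427329_a_at the follicular arrays read 14.23, 14.31 and 14.34, marginal zone 14.66, 14.62 and 14.57, and stimulated cells 12.82, 13.10 and 13.09. Memory cells read 11.59, 10.94 and 11.16 at day 7 and 11.58, 11.99 and 11.23 at day 40, and germinal center cells 10.91, 11.24 and 11.44 at day 7 and 11.35, 10.82 and 11.27 at day 40. Plasma cells read 13.61, 13.53 and 13.56. No array of the memory or germinal center groups reached the lowest array of the naive, stimulated or plasma groups, whereas memory and germinal center arrays overlapped one another.

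Against follicular cells, 1427329_a_at fell by 3.06 on the log2 scale in memory cells of day 7 (SE 0.20, adjusted p = 1.57e-09) and by 3.15 in germinal center cells of day 40 (SE 0.20, adjusted p = 3.12e-10). It fell by 1.29 after stimulation (SE 0.20, adjusted p = 2.29e-05). The change in plasma cells was -0.73 (adjusted p = 0.00404), short of the minimum change. On 1427351_s_at the change was -3.00 in memory cells of day 7 (SE 0.24, adjusted p = 2.62e-08) and 0.28 in plasma cells (SE 0.24, adjusted p = 0.357). Plasma cells exceeded germinal center cells of day 7 by 2.37 on the first of these probe sets (adjusted p = 8.71e-09) and by 2.94 on the second (adjusted p = 5.87e-09). IgM-bearing cells had been depleted before these sorts.

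A set of 5 other probe sets named Ighm (1425247_a_at, 1425324_x_at, 1427756_x_at, 1427869_at and 1427870_x_at) showed the opposite pattern, and was put together after the values were seen, as those named Ighm with no overlap between naive and immunized arrays. They read between 2.15 and 3.47 on all 9 naive and stimulated arrays and between 13.42 and 15.80 on all 15 arrays from immunized mice. The 1427869_at signal, for example, was 2.55 on each of the 3 follicular arrays, and 15.54, 15.53 and 15.57 in memory cells of day 7. Its germinal center arrays of day 7 read 15.57, 15.53 and 15.51 and its plasma cell arrays 15.80, 15.76 and 15.59. The memory and germinal center cells had been depleted of cells carrying IgM or IgD and sorted as IgG1+. The name Ighm therefore does not show that these signals are IgM heavy chain RNA.

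Naive and immunized arrays did not overlap on any of these 5. Because this separation chose them, their differences from follicular cells are given as a description. On 1425324_x_at, 1427756_x_at and 1427869_at these were 11.16 to 12.49 in memory cells of day 40 and 11.86 to 13.17 in plasma cells. The follicular signals of the other 2 did not exceed the array medians and give only a bound, by which 1425247_a_at was at least 7033-fold higher in memory cells of day 7 and at least 9006-fold higher in plasma cells, and 1427870_x_at at least 4260-fold and at least 8699-fold higher. Memory and germinal center cells of day 7 differed by -0.17 to -0.01 on the 5, with none called (lowest adjusted p = 0.328). From day 7 to day 40 the 5 changed by -0.89 to -0.43 in memory cells (highest adjusted p = 0.035 by limma), under the minimum change. In germinal center cells they changed by -0.32 to -0.16, with none called. Plasma cells exceeded memory cells of day 7 by 0.12 to 1.03, with 1 called, 1427870_x_at at 1.03, which came to 0.88 with arrays shifted to the same median and to 0.99 without memory replicate 1, under the minimum change.

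The remaining probe sets named Ighm behaved otherwise again. The 1452535_at signal was 10.41, 10.17 and 10.69 in plasma cells and no higher than 6.47 on any other array. It rose by 5.05 in plasma cells against follicular cells (SE 0.48, adjusted p = 4.20e-08), whose arrays read 3.87, 6.47 and 5.77. In germinal center cells, which read between 2.88 and 3.30 without overlapping the follicular arrays, the change was -2.15 at day 7 and -2.23 at day 40 (adjusted p = 0.00121 and 0.000826). Its falls in memory cells, of 1.63 at day 7 and 1.45 at day 40 (adjusted p = 0.0156 and 0.0384), involved overlapping arrays and were lost with only the compared groups in the fit (adjusted p = 0.136 and 0.271) or without follicular replicate 2 or 3.

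The 1425385_a_at signal varied within groups more than any other Ighm probe set tested, with 3.57, 12.63 and 11.82 in memory cells of day 40 and 2.29, 10.07 and 6.61 in germinal center cells of day 7. Memory cells of day 7 read 10.01, 8.55 and 10.50 and plasma cells 13.03, 12.48 and 11.49, above the follicular arrays at 2.29, 2.29 and 8.23. The rise over follicular cells was 8.06 in plasma cells (SE 2.41, adjusted p = 0.00798), and the difference in memory cells of day 7 was 5.42 (adjusted p = 0.106). The excess of plasma over germinal center cells of day 7, 6.01 (adjusted p = 0.047), was lost without germinal center replicate 1 (3.99, adjusted p = 0.232) and under several other settings. The probe sets 1426196_at, which read 2.76 on 1 plasma cell array and at most 2.30 elsewhere, and 1451949_at, at the floor on every array, were not tested.

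Ighg3 encodes the constant region of IgG3, a subclass known for T cell-independent responses. On 1427503_at the follicular arrays read 4.01, 5.78 and 5.22 and the marginal zone arrays 10.52, 10.43 and 10.21. Stimulated cells read 2.81, 2.81 and 4.25, and plasma cells 14.15, 14.45 and 14.30. The 12 memory and germinal center arrays lay between 8.86 and 12.60. Marginal zone and follicular arrays did not overlap, and every array from immunized mice was above the follicular ones. The rise in marginal zone cells was 5.38 (SE 0.65, adjusted p = 8.11e-06), in memory cells of day 7 6.45 (adjusted p = 6.88e-07) and in plasma cells 9.30 (adjusted p = 6.39e-10).

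The second Ighg3 probe set, 1447998_at, read 6.28, 6.77 and 6.77 in follicular and 10.55, 10.18 and 10.14 in marginal zone cells. It rose by 3.68 there (SE 0.30, adjusted p = 3.91e-08). After stimulation it read 2.76, 2.78 and 3.64, a fall by 3.55 (SE 0.30, adjusted p = 1.22e-08) with no overlap. The fall of 1427503_at, by 1.71 (adjusted p = 0.0365), rested on overlapping arrays and was lost under 7 settings, among them leaving out follicular replicate 2 (change -1.33, adjusted p = 0.154). The probe sets also parted in plasma cells: 1427503_at exceeded memory cells of day 7 by 2.85 (adjusted p = 0.00133), while 1447998_at differed by -0.46 (adjusted p = 0.233) and read 11.18, 11.05 and 11.01. The germinal center minus memory difference of 1427503_at at day 7, -1.87 (adjusted p = 0.0346), was lost under 6 settings, including without memory replicate 1 (-1.30, adjusted p = 0.174). The other Ighg3 probe sets, 1426198_at and 1426199_x_at, were not tested.

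Igha encodes the constant region of IgA, the class of mucosal antibody. Its 3 probe sets, 1421653_a_at, 1425763_x_at and 1429381_x_at, lay between 2.15 and 3.29 on the naive and stimulated arrays and were high but uneven in cells sorted for IgG1. On 1421653_a_at memory cells read 12.72, 8.87 and 11.13 at day 7 and 13.38, 13.84 and 11.70 at day 40. Germinal center cells read 5.39, 12.53 and 7.79 at day 7 and 12.90, 7.65 and 10.47 at day 40. Plasma cells read 14.32, 14.78 and 14.29. Arrays of the same germinal center group thus differed widely (SD 3.63 at day 7), while plasma cells were high on all 3 (SD 0.27).

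All 3 Igha probe sets rose in plasma cells against follicular cells, by 10.05 to 11.61 (adjusted p between 5.10e-07 and 1.06e-05). They rose by 6.02 to 8.15 in memory cells of day 7 (highest adjusted p = 0.00449) and by 8.21 to 10.03 at day 40 (highest adjusted p = 0.000482). In germinal center cells of day 7 the changes were 3.53 to 5.70 and 2 of 3 were called. Both calls were lost with only the compared groups in the fit (adjusted p = 0.0553 and 0.0523). At day 40 the 3 rises were 5.42 to 7.81 (highest adjusted p = 0.00526).

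The excess of plasma over memory cells of day 7, 3.46 to 4.02 (adjusted p between 0.0315 and 0.0417), was lost under 7 settings for 1421653_a_at. With the replicate number as a block its adjusted p was 0.0555, and that of 1425763_x_at was 0.0535. Without memory replicate 2 the difference was 2.54 for 1421653_a_at and 2.85 for 1429381_x_at (adjusted p = 0.196 and 0.167), and that of 1425763_x_at also lost the call (adjusted p = 0.189).

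Genes of myeloid cells were also uneven on these arrays. S100a9, a granulocyte protein, read 13.56, 2.15 and 7.47 in memory cells of day 7, 6.78, 12.51 and 11.31 at day 40, 9.38, 10.03 and 2.15 in germinal center cells of day 7 and 13.84, 2.15 and 2.15 at day 40. It read 14.23, 14.31 and 14.07 in plasma cells and 2.15 on every naive or stimulated array. The 5 myeloid markers summed to 12.78 to 25.45 on naive and stimulated arrays, 31.65 to 43.54 in memory cells of day 7, 33.15 to 41.85 in memory cells of day 40, 19.08 to 30.20 and 18.54 to 38.36 in germinal center cells of day 7 and day 40, and 42.39 to 43.00 in plasma cells. Itgam was at background on all arrays of every group except memory cells of day 7. Adgre1 was at background on those of plasma, stimulated follicular and day 7 germinal center cells. The part of such cells in the Igha signal was not tested.

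Among heavy chain variable segments, 1427851_x_at carried the symbols Ighv1-72 and Ighm, and its signal can be assigned to neither alone. It read 2.24, 4.32 and 3.95 in follicular cells and between 2.15 and 2.26 on the marginal zone and stimulated arrays. Memory cells read 9.08, 7.22 and 7.29 at day 7 and 6.98, 5.28 and 3.65 at day 40, and germinal center cells 7.27, 8.38 and 7.98 at day 7 and 5.28, 5.39 and 4.98 at day 40. Plasma cells were highest, at 11.31, 10.97 and 11.01. Day 7 and day 40 arrays did not overlap in either cell type, while memory and germinal center cells of day 7 did.

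This probe set rose by 4.36 in memory cells of day 7 (SE 0.64, adjusted p = 4.98e-05), 4.37 in germinal center cells of day 7 (adjusted p = 2.00e-05) and 7.59 in plasma cells (adjusted p = 8.74e-09). The change in memory cells of day 40 was 1.80 (adjusted p = 0.0561). The rise in germinal center cells of day 40, 1.71 (adjusted p = 0.0361), was lost under 6 settings and was 1.08 without follicular replicate 1. Between day 7 and day 40 it fell by 2.56 in memory cells (adjusted p = 0.0211) and by 2.66 in germinal center cells (adjusted p = 0.0155). The memory fall was -1.95 without day 7 replicate 1 (adjusted p = 0.0974) and -1.73 without day 40 replicate 3 (adjusted p = 0.105), and with only the compared groups its adjusted p was 0.237. The germinal center fall was between -2.61 and -2.41 in the 3 fits without 1 array that lost the call (adjusted p = 0.0519 to 0.0702).

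Ighv14-2, read by 1455530_at, went the other way. Its signal was 15.43, 15.33 and 15.35 in follicular, 14.73, 14.27 and 14.64 in marginal zone and 14.78, 14.82 and 14.77 in stimulated cells. Memory cells read 10.73, 10.06 and 10.91 at day 7 and 12.94, 13.44 and 12.56 at day 40, germinal center cells 10.13, 9.16 and 9.27 at day 7 and 9.71, 8.25 and 9.04 at day 40, and plasma cells 3.14, 6.22 and 3.60. The memory arrays of day 40 stood between the naive arrays and those of all other immunized groups, with no overlap on either side.

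Against follicular cells Ighv14-2 (1455530_at) fell by 11.05 in plasma cells (SE 0.55, adjusted p = 4.60e-12). The changes were -5.85 and -6.37 in germinal center cells of day 7 and day 40 (adjusted p = 1.04e-07 and 2.44e-08). The changes in memory cells were -4.80 at day 7 and -2.39 at day 40 (adjusted p = 3.20e-06 and 0.00412). Memory cells of day 40 exceeded those of day 7 by 2.41 (adjusted p = 0.012), which was lost without day 7 replicate 2 (2.16, adjusted p = 0.0558) or day 40 replicate 2 (2.18, adjusted p = 0.057). The 3 probe sets listed for Ighv14-2 together with constant regions were not tested.

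Kappa is the more common light chain class of mice, whereas the plasma cells were gated on the other class, lambda. The part of the gates in the kappa signals was not tested. The 3 probe sets that list the kappa constant region among variable and joining segments (1427455_x_at, 1427660_x_at and 1452417_x_at), with 1452463_x_at of the variable segment Igkv8-30, read between 14.65 and 16.07 on every array. Their group means spanned 0.42 to 0.84, and none was called against follicular cells. These signals lay close to the highest value in the table, and the table does not show whether they were saturated.

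Of the 21 kappa probe sets tested, the median change against follicular cells was -0.85 and -0.74 in memory cells and -1.04 and -1.22 in germinal center cells (day 7 and day 40), and 0.38 in plasma cells. Igkv15-103 (1427837_at) read 11.65, 11.87 and 11.85 in follicular cells, 6.17, 6.39 and 8.36 in germinal center cells of day 7 and 10.36, 9.38 and 10.46 at day 40. All 3 groups were separate. It fell by 4.82 in germinal center cells of day 7 (SE 0.53, adjusted p = 6.58e-07) and was 3.09 higher at day 40 than at day 7 (adjusted p = 0.000767), a call lost with only the compared groups (adjusted p = 0.0737). In memory cells the change was -2.45 at day 7 (adjusted p = 0.00173) and -1.78 at day 40 (adjusted p = 0.0218), the latter lost in 3 fits without 1 array. In plasma cells it was -1.54 (adjusted p = 0.0187) and -0.995 without plasma replicate 3 (adjusted p = 0.134).

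Igkv6-20 (1451962_at) read 9.51, 10.38 and 10.36 in follicular cells, 6.89, 6.98 and 7.33 after stimulation and 4.34, 5.94 and 6.84 in germinal center cells of day 40. Neither of the latter groups overlapped the follicular arrays. The changes were -3.02 (SE 0.69, adjusted p = 0.00137) and -4.38 (adjusted p = 4.02e-05). Its fall by 2.14 in memory cells of day 40 (adjusted p = 0.0349) was lost under 6 settings, with -1.80 without memory replicate 3.

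Igkv4-72 (1426201_at) read 9.50, 9.55 and 9.56 in follicular, 8.61, 8.34 and 8.37 in marginal zone cells, 7.71, 8.20 and 7.95 in germinal center cells of day 7, 5.95, 6.63 and 6.84 at day 40, and 11.24, 10.43 and 10.44 in plasma cells. No 2 of these groups overlapped. The change was -3.06 in germinal center cells of day 40 (SE 0.26, adjusted p = 2.06e-08), -1.10 in marginal zone cells (adjusted p = 0.00734) and 1.17 in plasma cells, the last 0.90 without plasma replicate 1. From day 7 to day 40 germinal center cells changed by -1.48 (adjusted p = 0.00108), with an adjusted p of 0.0502 with only the compared groups in the fit.

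Igkv9-120 was read by probe sets that disagreed. On 1452536_s_at follicular cells read 8.02, 9.72 and 8.87, marginal zone cells 5.78, 6.47 and 5.37, memory cells 13.08, 11.79 and 11.23 at day 7 and 9.13, 6.61 and 6.39 at day 40, and plasma cells 15.11, 14.57 and 15.07. Memory arrays of day 7 and day 40 did not overlap, and plasma cells were above every other group. It rose by 3.16 in memory cells of day 7 (SE 0.73, adjusted p = 0.00289) and by 6.05 in plasma cells (adjusted p = 9.38e-07), with a change of -3.00 in marginal zone cells (adjusted p = 0.00836) that was -2.57 without follicular replicate 2 (adjusted p = 0.0507).

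Between the days 1452536_s_at fell by 4.66 in memory cells (adjusted p = 0.000607), lost with only the compared groups in the fit (adjusted p = 0.0761). By contrast 1460423_x_at, with the same symbol, fell by 1.67 in memory cells of day 7 (adjusted p = 0.000642) and by 3.46 in germinal center cells of day 7 (adjusted p = 8.27e-08), and 1427750_at stayed at background. In plasma cells Igkv19-93 (1427856_a_at) read 11.82, 11.16 and 11.67 against 7.89, 8.93 and 9.03 in follicular cells. It rose by 2.93 (SE 0.30, adjusted p = 1.02e-07). The second probe set of this symbol, 1427855_at, was brighter and differed by less than the minimum change. It read 14.43, 14.26 and 14.26 in plasma cells against 13.44, 13.64 and 13.38 in follicular cells.

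The lambda group is small in mice, and its surface protein was a sort gate for plasma cells. Iglv1 (1430523_s_at) read 12.35, 12.62 and 12.53 in follicular cells, 13.19, 13.33 and 13.35 in marginal zone cells and 10.90, 10.78 and 11.05 after stimulation. Memory cells read 14.65, 14.66 and 14.61 at day 7 and 14.26, 14.08 and 14.12 at day 40, germinal center cells 14.30, 14.51 and 14.39 and then 13.98, 13.95 and 13.70, and plasma cells 15.44, 15.47 and 15.47. Spread within groups was small, and every array from immunized mice exceeded every naive one.

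The rises of 1430523_s_at over follicular cells were 2.14 and 1.65 in memory cells of day 7 and day 40 (adjusted p = 1.08e-10 and 5.39e-09), 1.90 and 1.38 in germinal center cells (adjusted p = 3.13e-10 and 1.33e-08) and 2.96 in plasma cells (adjusted p = 9.35e-14), each with an SE of 0.11. After stimulation it fell by 1.59 (adjusted p = 1.49e-09). The day 40 minus day 7 changes, -0.49 in memory cells (adjusted p = 0.0139) and -0.52 in germinal center cells (adjusted p = 0.0069), were under the minimum change.

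The other probe sets named Iglv1 alone differed from it. A second Iglv1 probe set, 1427292_at, read 11.04, 11.71 and 11.79 in follicular cells and 4.51, 3.45 and 6.57 after stimulation. The stimulated arrays were far below all others, and it fell by 6.67 (SE 0.48, adjusted p = 1.81e-09). No immunized group differed from follicular cells on it by a called change, with 1.15 in memory cells of day 7 (adjusted p = 0.0875). The third, 1447918_x_at, rose by 1.04 in plasma cells (adjusted p = 1.98e-06) and fell by 1.13 in germinal center cells of day 40 (adjusted p = 1.23e-06). The plasma cell rise came to 0.94 after quantile normalization, under the minimum change, and likewise that of 1424931_s_at, which lists the lambda constant region Iglc1 with Iglv1, moved from 1.01 (adjusted p = 1.84e-07) to 0.92.

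Igll1 encodes lambda5, part of the surrogate light chain of precursor B cells. Its probe set 1420177_at read 11.34, 11.42 and 10.85 in follicular cells and 14.18, 13.84 and 13.66 in plasma cells. These arrays did not overlap, and the rise was 2.69 (SE 0.26, adjusted p = 4.90e-08). In memory and germinal center cells the changes were 0.51 to 0.87, under the minimum change. The other Igll1 probe set, 1420176_x_at, read at most 2.19 and was not tested, so the probe sets of this gene disagreed. The group means of 1420177_at were lowest in stimulated and highest in plasma cells, as were those of the Iglv1 probe set 1430523_s_at. Whether 1420177_at reads Igll1 or other lambda RNA was not tested.

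Genes that act with immunoglobulin were read from a list of 23, of which 17 were tested through 26 probe sets. Jchain, which joins IgA and IgM into polymers, averaged 7.32 ± 1.67 (SD, n = 3) in follicular cells, 14.06 ± 0.29 in memory cells of day 7 and 15.71 ± 0.06 in plasma cells, without overlap. It rose by 6.74 (SE 0.64, adjusted p = 3.38e-07) and 8.39 (adjusted p = 2.24e-09), and by 7.46 in germinal center cells of day 7 (adjusted p = 3.46e-08). Pdia4, a protein disulfide isomerase of the endoplasmic reticulum, rose by 5.28 in marginal zone cells (SE 1.04, adjusted p = 0.00146) and 7.14 in plasma cells (adjusted p = 9.39e-06). Mzb1, a chaperone of immunoglobulin assembly, rose by 1.04 and 2.15 in the same groups (adjusted p = 2.80e-06 and 1.33e-11). Ell2, an elongation factor that promotes secretory heavy chain processing, rose by 2.92 in plasma cells (adjusted p = 4.86e-11).

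Among the groups compared with follicular cells, the antibody receptors Fcer2a and Fcmr fell most in plasma cells. The IgE receptor Fcer2a (1422122_at), whose protein CD23 was a sort marker, was at least 1364-fold lower there than in follicular cells, and the IgM receptor Fcmr fell by 10.43 (SE 0.13, adjusted p = 9.71e-22). Cd79a, the signalling partner of the receptor, fell by 1.92 in plasma cells (adjusted p = 6.35e-11) and by 2.15 after stimulation (adjusted p = 2.66e-11). Vpreb3, a pre-B cell receptor relative, fell by 8.55 after stimulation (adjusted p = 5.31e-13). Ung, the uracil glycosylase of class switching, rose by 2.49 in germinal center cells of day 7 (adjusted p = 3.55e-07) and 3.08 after stimulation (adjusted p = 1.33e-08), with 0.06 in memory cells of day 7 (adjusted p = 0.932).

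Over the 26 partner probe sets, 2 rose and 4 fell in marginal zone cells (5.38% and 3.28% of all probe sets tested). After stimulation 1 rose and 15 fell (16.8% and 20.3%). In germinal center cells of day 7, 6 rose and 5 fell (13.5% and 16.6%). Plasma cells had 6 rises and 10 falls (19.4% and 22.5%). In memory cells of day 7, 3 rose and 3 fell (8.94% and 9.67%). These counts are descriptions. Between day 7 and day 40 limma called 0 in memory and 0 in germinal center cells, against 4.17% and 4.49% of all probe sets. At an unadjusted p under 0.05 by limma there were 8 and 5.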

How the data were processed

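Total RNA was amplified, biotin-labelled and hybridized to Affymetrix mouse genome arrays. The deposited values are log2 signals from GCRMA, per the submitters' processing notes, which give no version; the annotation version used upstream is not given in the sources used here. They were used without further normalization, and 64 control probe sets were left out. All value columns were used. Symbols came from GEO's platform annotation: 34958 probe sets had 1 symbol, 932 several and 9211 none, and for the chosen ones symbols were compared with RefSeq by gene ID. The members and lists were chosen with earlier results of these data known.

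Group means of the 8 groups were fitted by a linear model to 26078 probe sets above the array median on at least 3 arrays (limma 3.58.1, R 4.3.3), with Benjamini-Hochberg adjustment over all of them, for 12 comparisons. A probe set was called at an adjusted p under 0.05 and a log2 change of at least 1. The procedure was run on simulated data with normal noise and changes added to brighter probe sets only. Changes from signals near the floor were therefore not covered. Alternatives were no filter and a stricter one, an offset before log2, setting all arrays to a common median, quantile normalization, a trended and robust prior, the replicate number as a block, only the compared groups, no minimum change, other choices of members and leaving out each array. A fold against a group whose 3 signals did not exceed their array medians is a lower bound. The text names constant region, Igll1, Ighv1-72 and Iglv probe sets, the 3 largest separated rises and falls of single-symbol variable segments per comparison with follicular cells, and up to 6 called partner genes per comparison.

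No arrays were identical, and arrays of 1 group correlated at 0.974 to 0.996 over 24 pairs (across probe sets, which are not independent). The labels state no pairing. Same-numbered samples deviated together (every correlation over 0.1) in 2 of 12 comparisons, plasma against germinal center cells of day 7 and memory cells of day 40 against day 7. In both the blocked count of calls was the same. Summaries used Python 3.11.15 and pandas 2.3.3. The number of arrays limits the precision, and the files used give no saturation flags.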

Additional observations from a re-analysis of the deposited data

Results flagged for a closer look

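The change from day 7 to day 40 was compared between memory and germinal center cells by an interaction term in limma, adjusted over all probe sets tested. It differed for 3 of the 42 tested immunoglobulin probe sets, against 3.44% of all probe sets. For Ighv14-2 (1455530_at) the change was 2.41 in memory cells and -0.52 in germinal center cells, a difference of 2.93 (adjusted p = 0.0406). For Igkv4-72 (1426201_at) the changes were 0.19 and -1.48, a difference of 1.67 (adjusted p = 0.0122). For Igkv14-111 (1451951_at) they were 0.20 and 1.46, a difference of -1.26 (adjusted p = 0.0444). On the last of these, germinal center arrays read 9.78, 9.63 and 10.35 at day 7 and 11.15, 11.33 and 11.66 at day 40, without overlap. Over 19 alternatives, Igkv4-72 lost the call in 0, Ighv14-2 in 11 and Igkv14-111 in 12. Both of the latter were lost with the replicate block (adjusted p = 0.0584 and 0.0621) and without a filter on dim probe sets (adjusted p = 0.0869 and 0.0734). Each was also lost without single arrays, with adjusted p up to 0.115 for Ighv14-2 and up to 0.122 for Igkv14-111, both without a germinal center array of day 40. Groups of 3 were not searched for outlying arrays.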

How the results depend on the processing

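Of 220 called single results, none reversed and 46 lost the call under at least 1 alternative (162 of 3069 alternative values). The replicate block ended 2 calls, both Igha in plasma against memory cells of day 7. It also moved the interaction count from 3 to 1, as did no filter on dim probe sets, and each array left out gave 1 to 3 (1 without germinal center day 7 replicate 1 or 2, germinal center day 40 replicate 2 or 3, or memory day 40 replicate 2), the remaining call being Igkv4-72. Leaving out _x_at and _s_at probe sets left 23 of the 42 tested members, so lower counts there partly reflect fewer members. The counts against follicular cells moved from 24 to 14 (memory, day 7), 24 to 15 (memory, day 40), 26 to 17 and 28 to 17 (germinal center, days 7 and 40) and 26 to 14 (plasma). Those of plasma against memory moved from 23 to 13, plasma against germinal center from 29 to 18 and memory between days from 3 to 1. The F test count moved from 41 of 42 to all 23. With only the compared groups, germinal center cells between days had 2 calls in place of 5, with fewer samples. Without a minimum change, memory cells between days had 9. Leaving out each array in turn gave 3 to 5 calls for marginal zone, 19 to 22 for stimulated, 22 to 26 and 19 to 25 for memory (days 7 and 40), 25 to 26 and 26 to 28 for germinal center and 23 to 26 for plasma cells against follicular cells. It gave 5 to 7 for germinal center against memory, 18 to 23 and 26 to 29 for plasma against memory and germinal center, 2 to 3 and 4 to 6 between days, and 38 to 41 for the F test. Partner calls over 12 comparisons were 114, and 95 to 168 under alternatives, with no share of all probe sets computed for this total. Shifting arrays to the same median moved the median of all probe sets by -0.23 for stimulated cells, with 23 falls and no rise, by -0.15 for plasma against memory and by -0.12 for plasma against germinal center cells. Quantile normalization moved it by 0.10 for stimulated cells, with 19 falls. Values near the floor and near the top of the scale limit the measured range. The alternative with locus-named kappa probe sets and those of the interaction were chosen after seeing the data.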

Other observations

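A further 5 probe sets carry only the name of the kappa locus (Igk or Igk-V21) and were outside the rule; they were looked at after the data were seen. The probe set 1452557_a_at had group means between 14.92 and 15.59. The group means of 1427858_at were 13.73 in follicular and 13.79 in marginal zone cells, 10.46 in germinal center cells of day 7 and 13.65 in plasma cells. The group means of 1427757_at were 5.72 in plasma cells and 2.15 to 2.35 in all other groups. Those of 1425738_at were 12.10 in follicular and 13.02 in plasma cells and 9.42 to 10.72 in all other groups. For 1426178_at they were 3.94 in plasma cells (SD 1.58) and 2.15 to 2.39 in all other groups.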
